A study of Mus musculus with 2 samples.

Results

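The Mir34 and Mir449 microRNA (miRNA) genes form a family of 6 in the mouse: Mir34a, Mir34b, Mir34c, Mir449a, Mir449b and Mir449c. They were chosen by gene symbol, through the Ensembl identifiers of the count tables, and all 6 were among the 1973 miRNA genes analysed. Of these 6 members, 4 were detected, meaning that they had at least 10 counts in each library; of all genes analysed 363, or 18.4%, met that rule. Mir34c was the main member by far, with 73% of the family's counts at the family's total of 467 ± 95.5 CPM (counts per 1000000 counts; mean ± SD, n = 2). Mir34a, Mir449a and Mir34b followed in that order in both libraries, while Mir449b and Mir449c had 0 counts.

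The libraries came from neural tube, the embryonic tissue that forms the brain and spinal cord, of healthy B6NCrl mouse embryos at 15.5 days, with no treatment. There was 1 group with 2 biological replicates, each a pool of male and female embryos: 78 embryos for library 1 and 62 for library 2. The tissue was taken whole, so a miRNA cannot be placed in a cell type, and no other age or tissue was compared. In such bulk samples, fewer cells of a type and less RNA per cell cannot be told apart. Small RNAs were sequenced, and CPM scales a gene's sense-strand count to the library's sum of such counts over miRNA genes.

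A miRNA is cut from a hairpin precursor and guides the silencing of messenger RNAs that pair with its seed, bases 2 to 8 from its 5′ end. Members of the Mir34 and Mir449 family share a seed and can therefore repress overlapping sets of targets. Cells that build many motile cilia, such as those of the airway, the oviduct and the ependyma that lines the brain ventricles, are known for high levels of Mir449 and of Mir34b and Mir34c, which there help to repress Cp110, an inhibitor of centriole maturation. Mir34a is best known as a direct target of the tumour suppressor p53 and restrains the cell cycle, and it is found in many tissues, neurons among them.

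The mature RNAs of the 5p arm show what unites the family, and are given 5′ to 3′ with the seed in capitals, from RefSeq on GRCm38.p6. RefSeq entries were matched for 5 of the 6 members, with 9 mature RNAs in all.
miR-34a-5p: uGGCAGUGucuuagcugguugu
miR-34b-5p: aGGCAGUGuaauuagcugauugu
miR-449a-5p: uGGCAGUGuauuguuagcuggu
miR-449c-5p: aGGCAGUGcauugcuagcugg
Of the 1738 mature entries of the table, these 4 carried the seed GGCAGUG (0.230%). For miR-34c-5p and the RNAs of Mir449b the seed was not examined here. Beyond the seed the 4 printed RNAs differed in part, and all also hold the bases UAGCUG, at positions that vary. The comparison that follows allows no gaps, so bases shared at shifted positions count as unlike. Compared base by base from the 5′ end, miR-449a-5p and miR-449c-5p were identical at 18 of 21 positions, miR-34a-5p and miR-449a-5p at 15 of 22, and miR-34b-5p and miR-449a-5p at 10 of 22.

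The 3p arms split the family further, as the same capitals show.
miR-34a-3p: aAUCAGCAaguauacugcccu
miR-34b-3p: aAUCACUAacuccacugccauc
miR-34c-3p: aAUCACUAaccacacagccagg
miR-449a-3p: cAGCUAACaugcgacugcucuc
miR-449c-3p: cAGUUGCUagcugcacuacccu
On this arm miR-34b-3p and miR-34c-3p shared a seed, their first 10 bases and 17 of 22 positions. The other 3 each had a seed that no other entry of the table carried. The deposited counts are per gene, so reads of the 5p and 3p arms of a member cannot be told apart. The precursor of Mir34a, which gave the second-highest counts, and that of Mir449a, the detected member of its cluster, are shown with both mature RNAs in capitals.
Mir34a precursor, chr4:150068454-150068555, plus strand: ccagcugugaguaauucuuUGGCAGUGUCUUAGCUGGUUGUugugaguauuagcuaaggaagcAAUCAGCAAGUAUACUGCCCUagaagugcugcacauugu
Mir449a precursor, chr13:113037534-113037624, plus strand: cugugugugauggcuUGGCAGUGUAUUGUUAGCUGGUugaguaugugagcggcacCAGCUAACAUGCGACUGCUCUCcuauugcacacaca

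The 6 genes lie at 3 places in the genome (mm10). Mir34a (ENSMUSG00000065493.1) stands alone on chromosome 4 and overlaps an exon of Gm37795, an uncharacterised transcript on the same strand. Mir34b (ENSMUSG00000065492.1, chr9:51103562-51103645) and Mir34c (ENSMUSG00000065587.1, chr9:51103034-51103110) lie 451 bases apart on the minus strand of chromosome 9. Both sit within the span of Btg4, which runs on the opposite strand, and overlap none of its exons. The Mir449 genes lie on the plus strand of chromosome 13 in introns of Cdc20b, which is known from multiciliated cells. Mir449c (ENSMUSG00000076146.1, chr13:113035983-113036091) comes first, Mir449b (ENSMUSG00000078027.1, chr13:113037419-113037498) follows after 1327 bases and Mir449a (ENSMUSG00000065575.1) after another 35. Mcidas, which encodes a regulator that starts the multiciliated cell programme, lies upstream on the chromosome, with 35588 bases between it and Mir449c.

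Sequence similarity between members did not extend far enough to make their precursors near-identical. The longest stretch that any member's precursor shared with any of the 2201 other annotated mouse miRNA precursors was 14 bases, between Mir449a and Mir679, and between Mir34c and Mir34b it was 11. Reads that aligned to several places, 29.4% in library 1 and 29.7% in library 2, were left unassigned. How many of them came from the family was not tested.

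The libraries held 4228685 and 6039889 sense-strand counts, so that a member with no counts could still have been present at up to 0.709 CPM (library 1) or 0.497 CPM (library 2). Intervals and limits here cover counting error only, since amplified reads are not independent molecules. Neural miRNA markers were present in part. The 6 Hox cluster genes, led by Mir10a and Mir10b, were listed as markers of the caudal axis and not of neural tissue. They summed to 361348 ± 14828 CPM (n = 2). Of 11 neural genes 7 were detected, led by Mir137 with 6917 ± 428 CPM and Mir92b with 1831 ± 186 CPM. Those not detected were Mir124a-1 (8 and 17 counts), Mir124a-2 (8 and 8), Mir124a-3 (2 and 5) and Mir9-2 (3 and 7). Whether reads of these genes were among those that aligned to several places was not tested. The tables hold no messenger RNA, so ciliated cells could not be checked by other markers than the family itself.

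Mir34c had 1620 counts in library 1 and 1771 in library 2, or 383 and 293 CPM. Its mean of 338 ± 63.6 CPM (n = 2) placed it at rank 128 of the 363 detected genes, with 64.7% of them less abundant. It was the one member above the median level of detected genes, which was 136 CPM.

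Mir34a had 424 and 322 counts, or 100.3 CPM in library 1 and 53.3 CPM in library 2 (76.8 ± 33.2, n = 2), at rank 212. Among the 4 detected members it had the largest spread between the pools relative to its mean.

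Mir449a had 163 and 232 counts, or 38.5 and 38.4 CPM (38.5 ± 0.0954, n = 2; rank 254). The near-equal values lie well inside the counting error of each, with 95% exact Poisson intervals of 32.9 to 44.9 CPM in library 1 and 33.6 to 43.7 CPM in library 2, so the small SD overstates how precisely the level is known.

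Mir34b, the neighbour of Mir34c, had 53 and 87 counts, or 12.5 and 14.4 CPM (13.5 ± 1.32, n = 2; rank 287). Mir449b and Mir449c were at 0 on both strands in both libraries. Taking 3 counts per library as the limit for a count of 0, the Mir449a count was 54.3 times that limit in library 1 and 77.3 times in library 2. The counting error of Mir449a itself is not included in these folds. A count of 0 was common in the table, where 1264 of 1973 miRNA genes (64.1%) had none in either library.

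**Figure D1:**
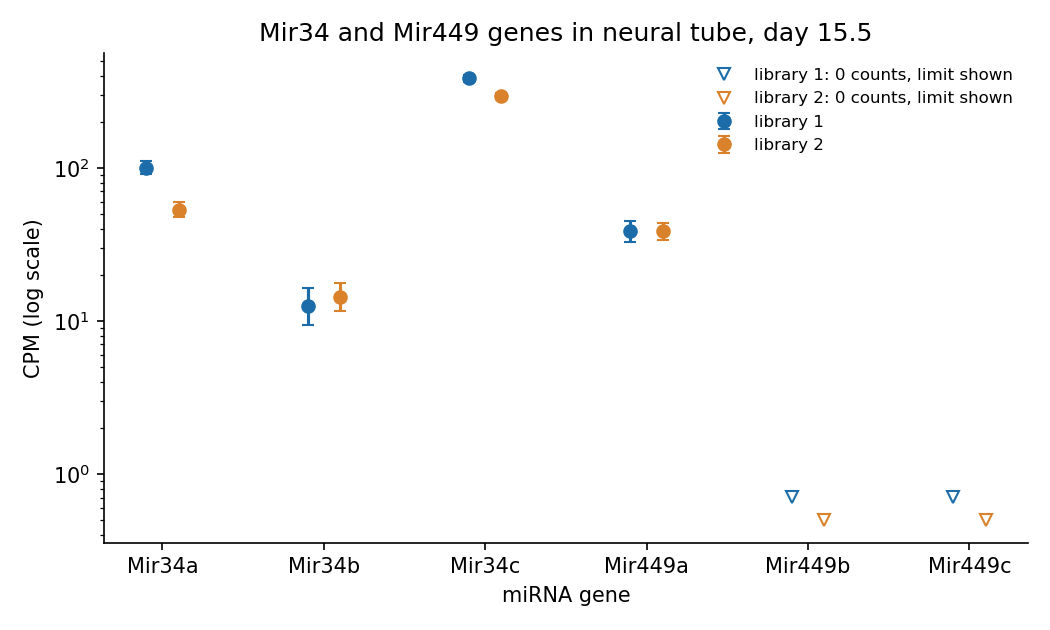
Level of each family member in both libraries, as CPM on a log axis. Filled points carry 95% exact Poisson intervals for counting error, and open triangles mark the limit that a count of 0 allows for Mir449b and Mir449c. Mir34c is highest at 383 and 293 CPM, and the order of the 4 detected genes is the same in both libraries.

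The order Mir34c, Mir34a, Mir449a, Mir34b was found in both libraries, and the Poisson intervals of neighbours in that order did not overlap within either library. The closest were Mir34a and Mir449a in library 2, with intervals of 47.6 to 59.5 and 33.6 to 43.7 CPM. Each read spans a mature RNA of 21 to 23 bases, so counts were compared between members with no division by length. Whether the members' RNAs were captured with equal efficiency was not tested.

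As a whole the family took 0.0534% of the miRNA counts (95% Wilson interval 0.0513 to 0.0557) in library 1. In library 2 its share was 0.0399% (0.0384 to 0.0416). Mir34c contributed 71.7% of the family's counts in library 1 (95% exact interval 69.8 to 73.5) and 73.4% in library 2 (71.6 to 75.2), intervals that overlap. Mir34a contributed 18.8% (17.2 to 20.4) and 13.3% (12.0 to 14.8), intervals that do not overlap. Mir449a contributed 7.21% (6.18 to 8.36) and 9.62% (8.47 to 10.9), and Mir34b 2.35% (1.76 to 3.06) and 3.61% (2.90 to 4.43). The chromosome 9 pair and the Mir449 cluster, which are the members known from ciliated cells, therefore held 81.2% of the family in library 1 (79.6 to 82.8) and 86.7% in library 2 (85.2 to 88.0). Most of this pooled share was Mir34c, and Mir449b and Mir449c added 0 counts.

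**Figure D2:**
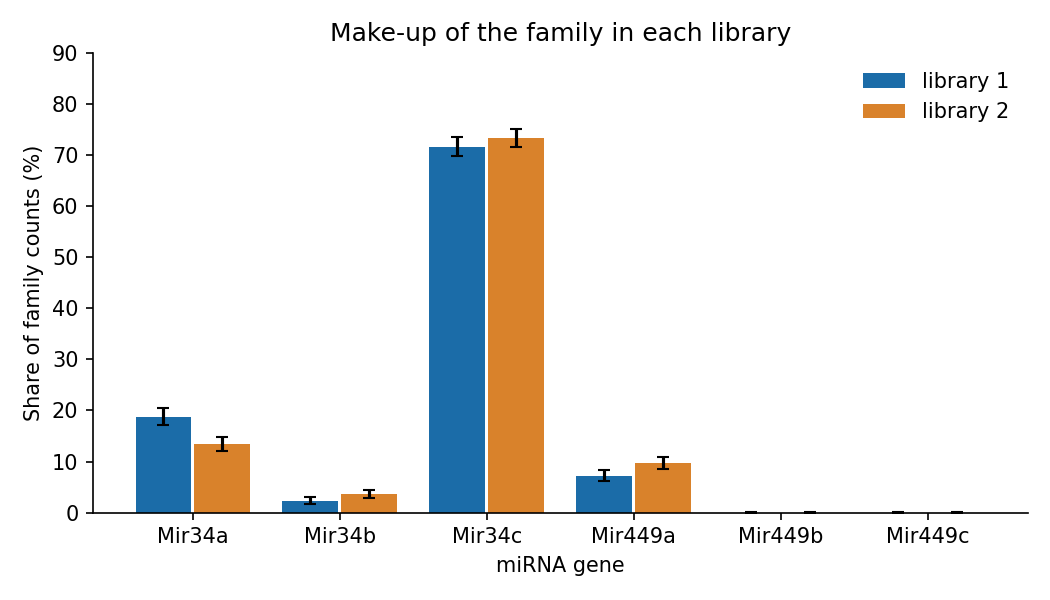
Share of the family's 2260 counts in library 1 and 2412 counts in library 2 taken by each member, in percent, with 95% exact binomial intervals. Mir34c holds 71.7% and 73.4%, and the share of Mir34a is larger in library 1.

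Between the pools, Mir34a and Mir34c differed by more than counting error and Mir449a and Mir34b did not. Mir34a was 1.84-fold higher in library 1 (95% exact interval 1.59 to 2.13; exact binomial test, two-sided, Benjamini-Hochberg adjusted p = 6.51e-16) and Mir34c 1.28-fold higher (1.19 to 1.37; exact binomial test, adjusted p = 6.86e-12). Mir449a had a fold of library 1 to library 2 of 0.980 (0.797 to 1.20; exact binomial test, adjusted p = 0.935), and Mir34b of 0.850 (0.592 to 1.21; exact binomial test, adjusted p = 0.536). These intervals allow a difference of up to 1.25-fold in favour of library 2 for Mir449a and 1.69-fold for Mir34b. So 2 of the 4 detected members were called, both higher in library 1, where 49.9% of the 363 detected genes were called in either direction and 25.6% as higher in library 1. The log2 ratio of library 1 to library 2 had a median of 0.16 over the 4 detected members and -0.0036 over all 363 genes. Summed over members, the family stood 1.31-fold higher in library 1 (1.23 to 1.39).

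This test compares 2 libraries and takes account of counting error alone. With the spread between the pools added, by edgeR's exact test, 0 members were called, against 2.20% of detected genes, and the adjusted p was 1 for each. By the same test 0 members had an unadjusted p under 0.05, against 14 of the 363 detected genes. The spread that edgeR's test used, 34.3% (coefficient of variation), was estimated from these same libraries. Of the 363 detected genes, 28 had a larger log2 ratio in favour of library 1 than Mir34a (0.88) and 68 a larger one than Mir34c (0.35). Mir34a was the member past 1.5-fold, as were 13.2% of detected genes in either direction.

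**Figure D3:**
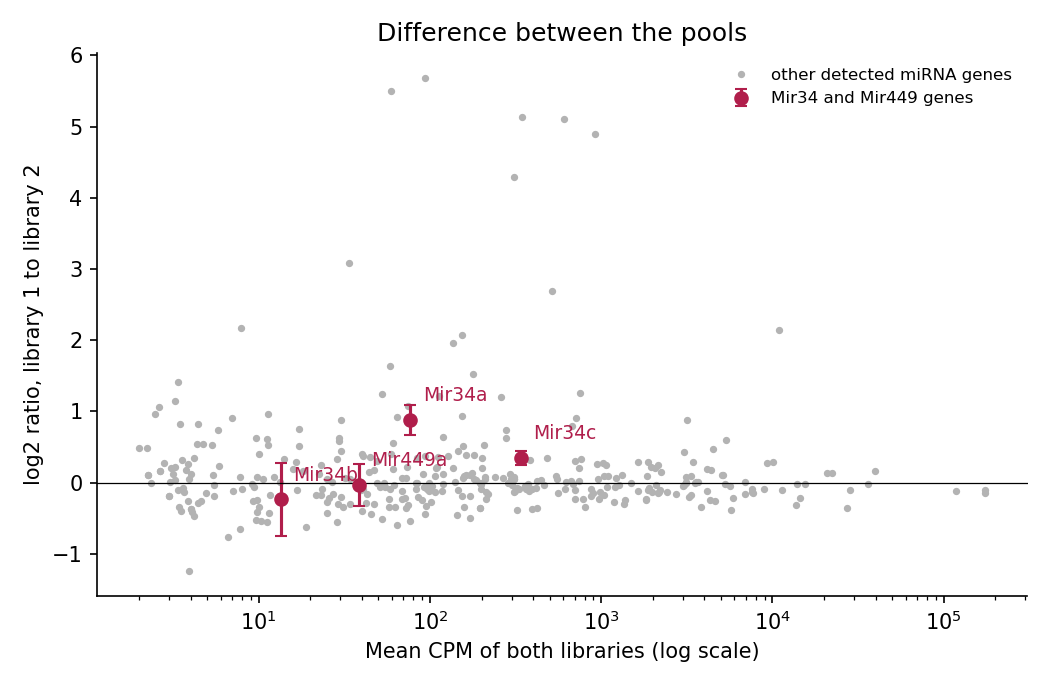
Log2 ratio of library 1 to library 2 against mean CPM (log axis) for the 363 detected miRNA genes in grey, with the 4 detected family members in red and their 95% exact counting intervals. Mir34a (0.88) and Mir34c (0.35) lie above 0, and the intervals of Mir449a and Mir34b include 0.

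Ratios between members do not depend on the library size. The ratio of Mir34c to Mir34a was 3.82 in library 1 (95% exact interval 3.43 to 4.26) and 5.50 in library 2 (4.88 to 6.21). That of Mir34a to Mir449a was 2.60 (2.17 to 3.14) and 1.39 (1.17 to 1.65), and that of Mir34c to Mir449a was 9.94 (8.46 to 11.7) and 7.63 (6.65 to 8.79). Mir34a thus shifted against both of the other genes between the pools. The ratio of Mir449a to Mir34b was 3.08 in library 1 and 2.67 in library 2, and the change of 1.15-fold between them had an interval (0.763 to 1.75) that includes 1. For the other 5 of the 6 pairs of detected members the interval of the change did not include 1. These 6 intervals are not adjusted for their number.

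Mir34b and Mir34c are known to be made from a shared primary transcript, yet Mir34c outnumbered Mir34b 30.6-fold in library 1 (95% exact interval 23.3 to 41.0) and 20.4-fold in library 2 (16.4 to 25.5). The ratio was 1.5 times higher in library 1, with an interval of 1.05 to 2.17. Unequal counts of neighbours were common in these libraries. Among 93 pairs of adjacent miRNA genes on the same strand, at most 10 kb apart and both detected, the more abundant gene outnumbered the other by a median of 7.14-fold (quartiles 3.03 and 37.9), and 28 pairs were more unequal than Mir34c and Mir34b. The change of the ratio between the libraries was larger than theirs (0.59 on the log2 scale) in 10 of these pairs, with a median of 0.19. The pattern of Mir449a beside Mir449b, a detected gene next to one with no counts, was seen in 26 of the 51 adjacent pairs with 1 detected gene. Pairs of the same cluster share genes and are not independent.

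**Figure D4:**
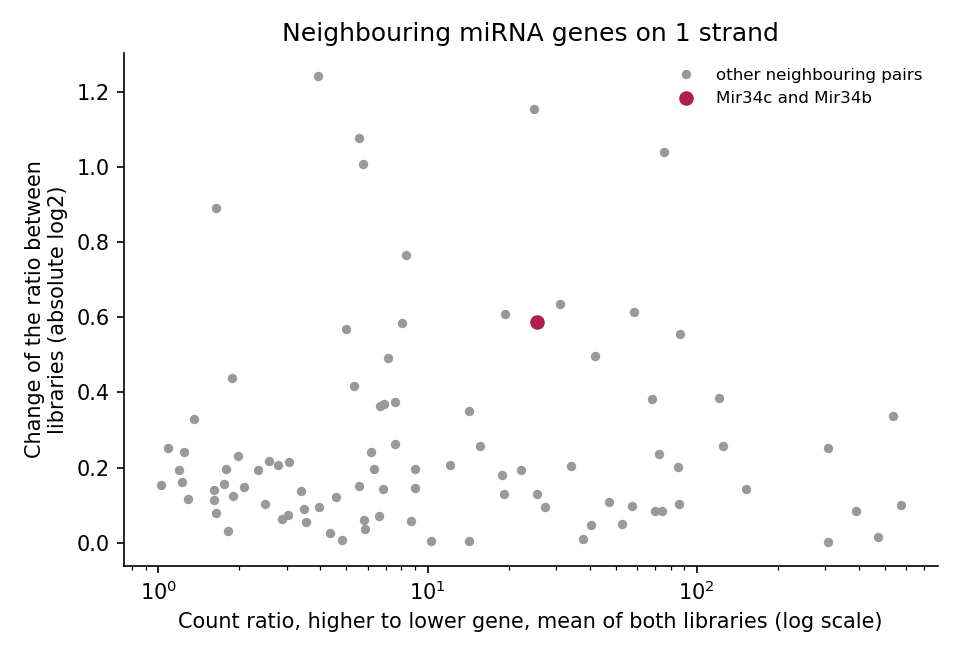
Each point is a pair of adjacent detected miRNA genes on the same strand, at most 10 kb apart (93 pairs). The horizontal axis gives the count ratio of the higher to the lower gene (mean of both libraries, log axis), and the vertical axis the absolute log2 change of that ratio between the libraries. Mir34c and Mir34b (red) lie at a ratio of 25.5 and a change of 0.59, within the range of the other pairs.

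Choroid plexus, the epithelium that secretes cerebrospinal fluid and whose cells carry cilia, has miRNA genes of its own, in Trpm3 (Mir204) and in the serotonin receptor gene Htr2c. Of the 7 analysed genes of this list 4 were detected. All 4 were higher in library 2, a direction in which 24.2% of detected genes were called, with a median log2 ratio of -0.53. Those within the same host gene are not independent. By edgeR's exact test 0 of the 4 were called, against 2.20% of detected genes. By that test 0 of the 4 had an unadjusted p under 0.05, against 14 of the 363 detected genes. For Mir204 the levels were 350.0 CPM in library 1 against 441 CPM in library 2, and for Mir1298 they were 143 and 199 CPM. The detected choroid plexus genes therefore lay on the other side of 0 from Mir34a and Mir34c, whereas the point estimates of Mir449a (-0.03) and Mir34b (-0.23) were slightly negative, without passing the test, and that of Mir449a turned to 0.0051 with library sizes alone. The list as a sum reached 662 ± 128 CPM (n = 2), against 467 ± 95.5 CPM for the family.

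Markers of other epithelia moved with library 1, as Mir34a and Mir34c did. The 7 epithelial genes (the Mir200 family, Mir203 and Mir205) were all detected and all called as higher in library 1, against 25.6% of detected genes. Their median log2 ratio was 5.10, and together they reached 5458 CPM in library 1, against 631 CPM in library 2. Mir429 had 1782 and 58.4 CPM, and Mir203 had 934 and 485 CPM. By edgeR's exact test 6 of the 7 were called, all but Mir203, against 2.20% of detected genes. By that test 6 of the 7 also had an unadjusted p under 0.05, against 14 of the 363 detected genes. None of the 7 was at 0 in either library. Several of the 7 are adjacent genes of the Mir200 family and are not independent. The part of such tissue in the higher levels of Mir34a and Mir34c was not tested. The epithelial sum differed 8.46-fold between the pools (8.17 to 8.75) and the family sum 1.31-fold.

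p53 activates, among other genes, Mir34a, Mir192, Mir194-2, Mir215 and Mir107, and it aids the processing of Mir143, Mir145a and Mir16-1. The listed miRNA genes linked to p53, outside the family, were also higher in library 1. Of the 9 genes of this list 8 were detected and all 8 were called in that direction, against 25.6% of detected genes, with a median log2 ratio of 1.52. These 8 include adjacent genes, such as Mir143 with Mir145a and Mir192 with Mir194-2, and are not independent. By edgeR's exact test 1 of the 8 was called, Mir215 (adjusted p = 0.00602), against 2.20% of detected genes. By that test 4 of the 8 had an unadjusted p under 0.05, against 14 of the 363 detected genes. The log2 ratios ranged from 0.09 for Mir15a to 3.09 for Mir215. The most abundant, Mir143 with 17950 and 3951 CPM, is known above all from smooth muscle and mesenchyme, and Mir192, Mir194-2 and Mir215 from gut and kidney. Mir15a, next in level, was at 1933 and 1772 CPM. The values for Mir34a (0.88) and Mir34c (0.35) both lay inside the wide range of this list, and those for Mir449a (-0.03) and Mir34b (-0.23) lay below it. A part of p53 in the levels of the family was not tested.

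Germ cells of the testis are another known source of Mir34b, Mir34c and Mir449. Of 18 analysed genes of the X-linked miRNA cluster known from the germline, 0 were detected, against 18.4% of all genes analysed. No count in either library was found for 15 of the 18, against 64.1% of all genes. The list held 3 counts in library 1 and 2 in library 2. How many reads of this cluster aligned to several places and were left unassigned was not tested. The leading genes, Mir741 and Mir881, had 2 and 1 counts in library 1 and 1 and 0 in library 2.

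**Figure D5:**
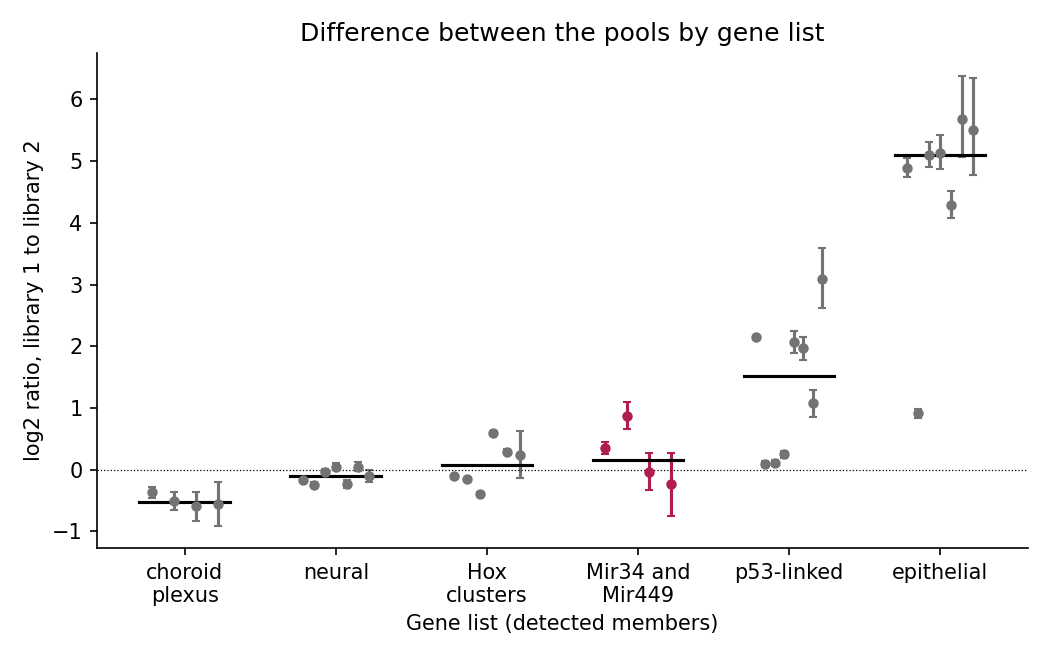
Log2 ratio of library 1 to library 2 for the detected genes of each list, with 95% exact counting intervals; black lines mark list medians. The 4 family members (red) have a median of 0.16, between the choroid plexus genes at -0.53 and the epithelial genes at 5.10.

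Genes closest to the members in level, by mean log2 CPM over the 2 libraries, were Mir485 and Mir429 for Mir34c, Mir222 and Mir146 for Mir34a, Mir152 and Mir30c-1 for Mir449a, and Mir452 and Mir26a-2 for Mir34b. A like mean could hide unlike libraries: beside Mir34c, Mir485 had 325 and 339 CPM, while Mir429 had the 1782 and 58.4 CPM given above. Nearest to Mir34c in log2 ratio, among 195 other detected genes of at least 100 CPM, were Mir374b (0.35), Mir28a (0.35) and Mir494 (0.36). With 2 libraries this likeness rests on a single ratio and is a description.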

How the data were processed

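MicroRNA-seq was done on total RNA from 2 pools of neural tube. The authors deposited raw read counts per miRNA gene, 1 table per library, on mm10 with annotation GENCODE M4, per the deposited README texts, with aligner, counter and trimming not given in the sources used here. Entries naming no gene (45.7% and 47.7% of reads) were left out. Gene names and coordinates were taken from GENCODE M21, also on this assembly (1894 of 1973 identifiers matched; all 6 members with the same version). The sense column gave CPM. Detection required 10 counts in each library. Detected genes were compared by an exact binomial test against TMM effective sizes (edgeR 4.0.16, R 4.3.3), Benjamini-Hochberg adjusted over 363 genes at 0.05. The test was first checked on simulated counts that held counting error only, so that check does not cover the spread between pools. DESeq2 1.42.0 size factors, edgeR's exact test and other filters were alternatives. Python 3.11.15, scipy 1.17.1, pandas 2.3.3, numpy 2.4.6 and matplotlib 3.10.9 were used. The members and gene lists were chosen with earlier results of these data known. All members, the 2 most abundant genes of each list and the nearest genes in level or ratio were named by rule. Mir203, Mir15a, Mir192, Mir194-2, Mir215, Mir145a, Mir107 and Mir16-1 were named for their roles or their place in a range, after their values were seen. The undetected neural genes and the genes met in sequence comparisons were also named after their values were seen. No condition was compared, and 1 group of 2 allows no outlier test.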

Additional observations from a re-analysis of the deposited data

How the results depend on the processing

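Directions and calls of Mir34a and Mir34c held with DESeq2 size factors, library sizes alone, counts of both strands, no filter and a minimum of 50 counts, with 2 members called in each. With edgeR's exact test 0 were called. The family log2 ratio ranged from 0.38 to 0.42 over the 3 scaling and strand alternatives and was 0.29 without Mir34a and 0.48 without Mir34c, 2 alternatives chosen after the data were seen. The sign for Mir449a, not called, turned from -0.03 to 0.0051 with library sizes alone. The family level of 467 CPM was 245 CPM with all reads of the table as library size, since unassigned reads enter the total, and 129 CPM without Mir34c. Leaving out either library gave 399 to 534 CPM, and 4 members were detected under every filter tried. With 3 antisense reads of Mir34b added in library 2, the change of the Mir34c to Mir34b ratio was 1.55 (1.09 to 2.24). Mir34b, with 53 and 87 counts, limits what can be said of that pair. No paired analysis was possible because there is 1 group.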
